A study of Mus musculus with 37 samples.

Results

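Tumours rich in Esrp1 transcripts were compared with tumours poor in them, to describe how far the epithelial state of the implanted pancreatic tumour clones differed between both ends of that range. The 12 libraries compared, each from 1 tumour, were 6 Esrp1-rich and 6 Esrp1-poor libraries out of 37 in the series. They were selected on measured values. Of 34 libraries with a T cell phenotype label, 17 held at most 10 CPM (counts scaled to a common library total) summed over Myh6, Myh7, Cps1 and Serpina3k, transcripts of heart muscle and liver. These 17 were ranked by the CPM of Esrp1, and the top 6 and the bottom 6 were taken. The Esrp1-rich libraries, named by clone and tumour number, were bulk_7160c5_no2 at 92.9 CPM, bulk_7160c2_no2 at 60.0, bulk_6421c2_no2 at 22.6, bulk_6555c3_no2 at 17.8, bulk_6620c1_no2 at 10.3 and bulk_6499c4_no2 at 2.93. The Esrp1-poor libraries were bulk_6422c5_no2 at 1.0 CPM, bulk_6419c1_no2 at 0.97, bulk_2669c4_no3 at 0.72, bulk_6694c2_no2 at 0.56, bulk_2838c3_no3 at 0.32 and bulk_6556c3_no2 at 0.30. The 5 libraries in between lay close to both limits, with 2.15 CPM in bulk_6556c4_no2, just outside the rich group, and 1.95 CPM in bulk_6419c5_no2, just outside the poor group. Since Esrp1 set the groups, it is left out of everything that follows.

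All mice were of the strain C57BL/6, carried their tumours under the skin and received no treatment, and the tumours were taken 3 weeks after implantation. RNA was sequenced from whole tumours, so tumour cells, stroma and blood cells were read together. The series asked how tumours labelled T cell low and T cell high differ. The Esrp1-rich group held 5 tumours labelled T cell high and 1 labelled intermediate, and the Esrp1-poor group held 4 labelled low, 1 intermediate and 1 high, so the Esrp1 groups and the T cell label can hardly be told apart. The sources used here do not say how the label was measured or what the leading digits of a clone name mean. Each of the 12 libraries came from a clone of its own, and the clone was the replicate. Of the rich clones, bulk_7160c2 and bulk_7160c5 share the digits in their names. In a bulk tumour, fewer cells of a type and less RNA per cell cannot be told apart.

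ESRP1 is an RNA-binding protein of epithelial cells that steers alternative splicing toward epithelial isoforms, together with its relative ESRP2. Epithelial cells are joined by tight junctions, built from claudins and from occludin and its relatives, by adherens junctions built on E-cadherin, and by desmosomes. Carcinoma cells can lose these contacts and gain mesenchymal features such as vimentin filaments, under transcription factors of the ZEB, SNAI and TWIST families, whereas GRHL, OVOL and ELF factors hold the epithelial programme. Pancreatic ductal tumours often keep a mixture of both states.

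Both groups were sequenced to a similar depth, with 26.5 to 44.2 M counts per library. Of 15986 genes tested with edgeR's quasi-likelihood test, 782 were called at an adjusted p below 0.05, which is 4.89%. Of these, 384 (2.4%) were higher and 398 (2.49%) lower in Esrp1-rich tumours, and 3685 had an unadjusted p below 0.05. In 432 genes (2.7%) the levels of the groups did not overlap, with the rich group above in 228 (1.43%) and below in 204 (1.28%). This count of calls moved with the selection. It was 275 without bulk_7160c2 and bulk_7160c5, 164 with the T cell label as a term in the model, 268 for the top 5 against the bottom 5 libraries, and 35 for the top 8 against the bottom 8, where 7 clones stood on each side. Of 39 genes named in the text by rule and called, the last comparison still called 4, which were Cldn7, St14, Stmn2 and Cdh16. The T cell label entered the model as high or not high. Only bulk_7160c5 among the rich clones was not high, and only bulk_2838c3 among the poor clones was high. Calls lost or gained with that term therefore lean on single clones, here and below, and do not separate the label from the Esrp1 groups.

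The marker genes Epcam and Cldn7 followed Esrp1 and are given by value, as a check of the groups. Both were among the genes tested, and their calls enter the counts of called genes. Epcam, a cell adhesion protein at the surface of epithelial cells (chr17:87635979-87651129, + strand, mm10), had levels of 352 to 879 CPM in the rich libraries, with a median of 420. In the poor libraries it had 11.3 to 100 CPM, with a median of 20.3. Here and below, levels of the ranked libraries are CPM after TMM scaling. Cldn7, a claudin that binds Epcam (chr11:69964779-69967885, + strand), had 34.2 to 248.8 CPM with a median of 162.3 in the rich libraries, against 2.78 to 10.2 with a median of 7.56 in the poor ones. The groups did not overlap in either gene, and the lowest rich value of Cldn7, in bulk_6421c2_no2, still stood above every poor library. Cdh1, which encodes E-cadherin (chr8:106603351-106670246, + strand), did not follow them. It ranged from 525 to 1155 CPM with a median of 786 in the rich libraries and from 446 to 1243 with a median of 676 in the poor ones. Each rich library lay within the range of the poor ones, with a log2 difference of 0.087 ± 0.245 (SE, n = 6 clones a group, adjusted p = 0.866, edgeR), rich minus poor as everywhere below.

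**Figure D1:**
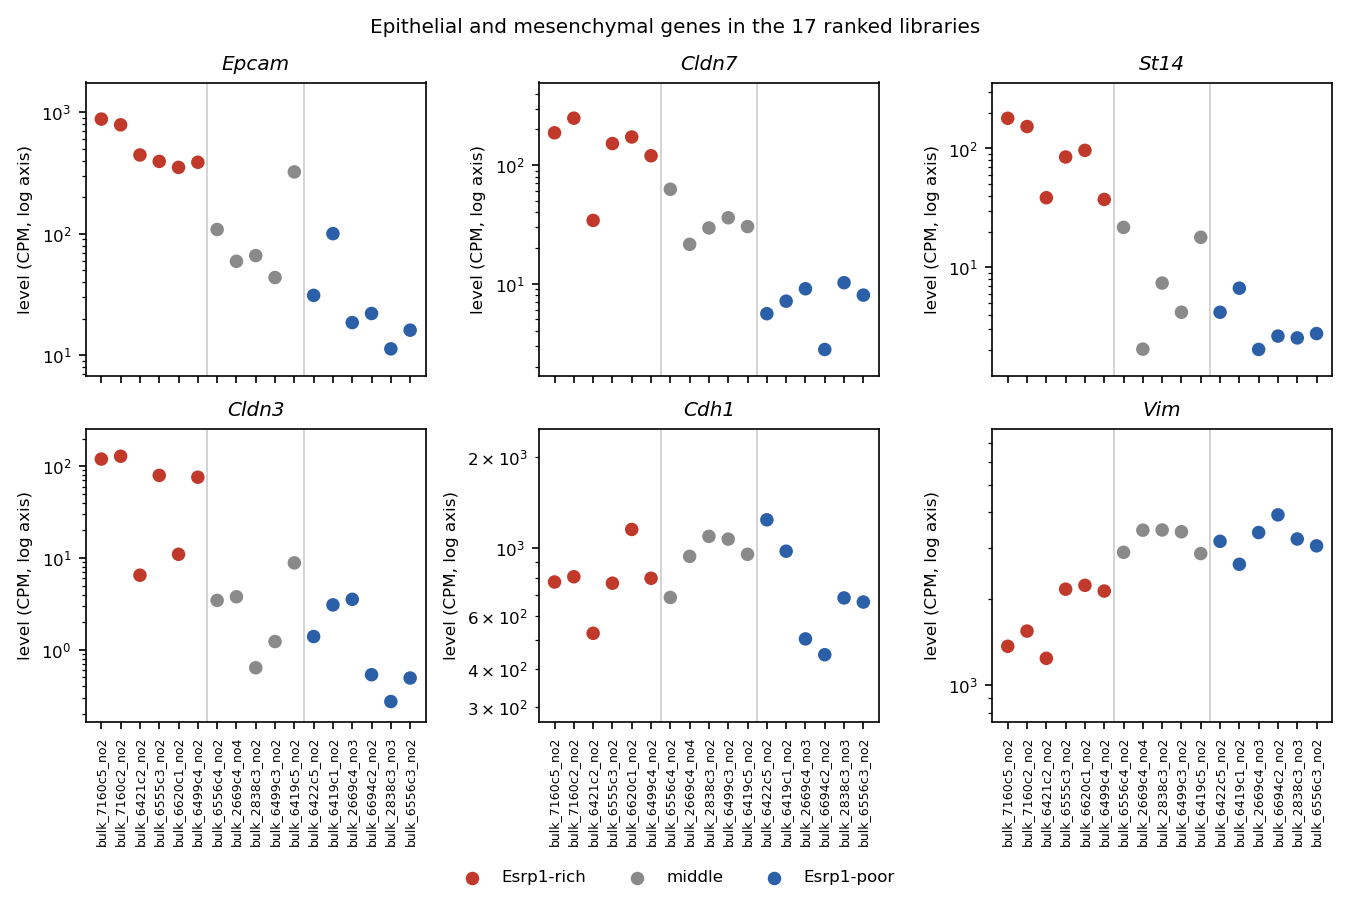
Level of 6 genes in each of the 17 ranked libraries (CPM after TMM scaling, log axis), ordered from the highest to the lowest Esrp1 level, with 1 point per library and vertical lines between the groups. Epcam, Cldn7, St14 and Cldn3 are higher in each rich library than in any poor one, Vim is lower in each rich library, and Cdh1 overlaps between 525 and 1155 CPM.

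Tight junction genes were higher in the Esrp1-rich tumours. Leaving Cldn7 aside, 6 of the other 13 tested were called higher and none lower, beside 2.4% of all genes called higher. Their median log2 difference was 1.10, with 12 of 13 above 0, beside a median of 0.001 over all genes. Cldn3, a barrier-forming claudin, had 6.5 to 129 CPM in the rich libraries with a median of 77.7. Its poor libraries had 0.273 to 3.55 CPM with a median of 0.965. All 6 rich libraries lay above all poor ones, although bulk_6421c2_no2 and bulk_6620c1_no2 stayed near 10 CPM, and the log2 difference was 5.5 ± 0.89 (SE, adjusted p = 0.0065). Marveld3, a MARVEL-domain protein of the tight junction, had 15.5 to 38.2 CPM in the rich libraries and 1.61 to 11.4 in the poor ones (2.59 ± 0.42, adjusted p = 0.0065). Occludin, encoded by Ocln, ranged from 28.5 to 48.8 CPM against 5.05 to 20.7 (1.56 ± 0.29, adjusted p = 0.0115). Neither gene overlapped between the groups. The remaining calls were Cldn23, a further claudin, Crb3, a small protein of the apical polarity complex, and Marveld2, the tricellulin of tricellular corners, with log2 differences of 1.78, 1.10 and 0.84 and some overlap in each. Cgn and F11r, which encode a junction plaque protein and an adhesion receptor, were not called, with 0.29 and 0.14. Neither was Cldn18, a claudin of stomach cells, whose levels ran from 0.492 to 236 CPM within the rich group. With the T cell label in the model, 3 of the 14 tight junction genes were called, Cldn7 included, beside 164 of 15986 genes. Without bulk_7160c2 and bulk_7160c5, 4 were, beside 275 of 16211.

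Adherens junction and desmosome genes gave no such calls. Apart from Epcam, none of 13 tested was called in either direction, 7 lay above 0, and the median log2 difference was 0.08. Jup, which encodes plakoglobin, had 191 to 341 CPM in the rich and 266 to 439 in the poor libraries (-0.17, adjusted p = 0.573). Dsp, the desmoplakin gene, had 191 to 250 against 72.6 to 420 CPM (-0.36, adjusted p = 0.52). Dsc2, a desmosomal cadherin, had the highest difference of this list beside Epcam, at 1.68 ± 0.54 (adjusted p = 0.0875), with 8.48 to 80.1 CPM against 3.18 to 24.7. Simple keratins, the filament proteins of ducts and glands, gave no call among 6 either. Krt19, a keratin of pancreatic ducts, had 741 to 2278 CPM in the rich libraries and 681 to 1450 in the poor ones (0.20 ± 0.29, adjusted p = 0.716). Krt8 and Krt18, which pair in simple epithelia, had differences of -0.46 each, with adjusted p-values of 0.215 and 0.185. The lowest level of these 3 keratins in any of the 12 libraries was 681 CPM. Krt7, the keratin of smallest p, had 626.5 to 2357 CPM in the rich and 164 to 1222 in the poor libraries (1.19 ± 0.45, adjusted p = 0.134, edgeR). Of the 6 keratins, 2 lay above 0 and 4 below, with a median of -0.41.

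Surface proteases and trafficking genes of epithelia were higher in the rich group, with 6 of 14 called higher, beside 2.4% of all genes, none lower and a median of 1.22, beside 0.001 for all genes. St14 encodes matriptase, a membrane-bound serine protease (chr9:31089402-31131853, - strand). It had 37.3 to 180 CPM with a median of 90.6 in the rich libraries and 2.04 to 6.68 with a median of 2.71 in the poor ones. The lowest rich value was far above the highest poor value, and the log2 difference was 4.82 ± 0.47 (SE, adjusted p = 4.2e-04). St14 was called under every alternative computed for this comparison. Prss8, which encodes prostasin, the partner protease of matriptase, had 4.45 to 16.3 CPM against 0.189 to 3.56 (2.48 ± 0.61, adjusted p = 0.0382). Their inhibitors Spint1 and Spint2 had differences of 1.23 and 0.80 and were not called, with adjusted p-values of 0.125 and 0.0669.

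Ap1m2, the epithelial subunit of a clathrin adaptor that sorts proteins to the basolateral membrane, had 1.48 to 35.3 CPM in the rich libraries and at most 0.490 in the poor ones (6.16 ± 1.06, adjusted p = 0.00827). Erbb3, a receptor of the EGF receptor family, had 104 to 175 CPM against 27.9 to 65.5 (1.68 ± 0.20, adjusted p = 0.00109). Rab25, a small GTPase of membrane recycling, was uneven within the rich group. It reached 39.4 CPM in bulk_7160c5_no2 and 16.3 in bulk_7160c2_no2, while the other rich libraries had 0.693 to 2.22 and the poor ones 0.296 to 0.792. Its log2 difference of 4.33 ± 0.97 (adjusted p = 0.0254) fell to 1.66 without bulk_7160c2 and bulk_7160c5, where the adjusted p was 0.0688. Llgl2, a basolateral polarity gene, was called at 1.21 with overlapping groups. Without bulk_7160c2 and bulk_7160c5, 3 of the 14 genes of this list were called, beside 275 of 16211 genes.

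Regulators of the epithelial state moved less evenly. Of 10 tested, 2 were called higher, beside 2.4% of all genes, and none lower. Their median was 0.81, beside 0.001 for all genes. Spdef, an ETS factor of secretory epithelia, had 7.72 to 24.3 CPM in the rich libraries and 0.250 to 2.15 in the poor ones (3.66 ± 0.53, adjusted p = 0.00429). The groups did not overlap in Spdef. Grhl2, which activates junction genes in epithelia, had 7.29 CPM in bulk_7160c5_no2 and 0.164 to 0.956 in the other rich libraries, against 0.159 to 0.603 in the poor ones (2.26 ± 0.86, adjusted p = 0.138). The gene thus stood out in 1 library, and without bulk_7160c2 and bulk_7160c5 its difference was 0.33. With the T cell label in the model, as high or not high, Grhl2 was called at 3.21, with an adjusted p of 0.0332. In that coding bulk_7160c5, the clone of the outstanding library, was the only rich clone not labelled high. The call is therefore no sign of a difference beyond that library. Elf3 and Klf5, with 0.53 and 0.46, were not called, and Ehf had 1.56 with an adjusted p of 0.0783.

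Esrp2, the relative of Esrp1, did not follow the groups. It had 37.1 to 81.9 CPM in the rich libraries and 29.0 to 87.4 in the poor ones (-0.068 ± 0.307, adjusted p = 0.917), and the sign of this small difference turned under several alternatives. Genes whose transcripts ESRP proteins splice were not called in their total level, 0 of 8 by edgeR, with a median of -0.19 and 7 of 8 below 0. Of these, Scrib, a polarity scaffold, had 79.3 to 115 CPM in the rich and 112 to 142 in the poor libraries (-0.43 ± 0.12, adjusted p = 0.0505). Enah, an actin regulator, had the highest difference, at 1.02 (adjusted p = 0.0725). Cd44, a hyaluronan receptor, had -0.17 and Ctnnd1, which encodes p120 catenin, -0.045. Counts per gene hold no information on isoforms, so splicing itself was not measured.

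Mesenchymal genes were lower only in part. Of 14 markers tested, 3 were called lower, beside 2.49% of all genes, and 1 was called higher, beside 2.4%. Their median log2 difference was -0.16. Vim, the vimentin gene (chr2:13573927-13582826, + strand), had 1238 to 2226 CPM with a median of 1834 in the rich libraries and 2636 to 3921 with a median of 3200 in the poor ones. No rich library reached the lowest poor one, and the log2 difference was -0.88 ± 0.18 (SE, adjusted p = 0.0174). The difference in Vim was -1.04 with the T cell label in the model (adjusted p = 0.0738), -0.73 without bulk_7160c2 and bulk_7160c5 (0.0871) and -0.72 for the top 8 against the bottom 8 libraries (0.102). S100a4, a calcium-binding protein of motile cells, had 15.5 to 62.6 against 31.2 to 213 CPM (-2.04 ± 0.49, adjusted p = 0.0325), and its call was lost when any of several single libraries was left out.

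Cdh11, a cadherin of mesenchymal cells and fibroblasts, went the other way, with 69.6 to 176 CPM in the rich and 33.9 to 72.7 in the poor libraries (1.06 ± 0.25, adjusted p = 0.0332). Cdh2, which encodes N-cadherin, had 2.64 to 85.8 against 54.1 to 103 CPM and was not called (-0.82, adjusted p = 0.383). None of 9 transition factors was called by edgeR in the main fit, with TMM scaling, all rich and poor libraries and no others. Zeb1, a repressor of E-cadherin, had 35.4 to 54.2 CPM in the rich and 39.8 to 72.1 in the poor libraries (-0.49 ± 0.16, adjusted p = 0.0978). Without bulk_6419c1 its adjusted p was 0.0413. Zeb2 had 111 CPM in bulk_7160c5_no2 and 42.3 to 52.1 in the other rich libraries, against 43.3 to 66.9 (0.11, adjusted p = 0.808), and without that library the difference was -0.16. Twist1 was higher in 5 of 6 rich libraries than in any poor one, with 26.4 to 71.6 CPM against 6.03 to 44.3 (1.69 ± 0.46, adjusted p = 0.0515). Twist1 was called in 6 alternatives: with relative log expression scaling (adjusted p = 0.0492), with DESeq2 (0.00478), with the middle libraries in the fit (0.0342), without the libraries above 10 CPM of Alb (0.00432), without bulk_6419c1 (0.00206) and without bulk_6421c2 (0.0411). Snai1 and Snai2 had differences of 0.14 and -0.059.

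**Figure D2:**
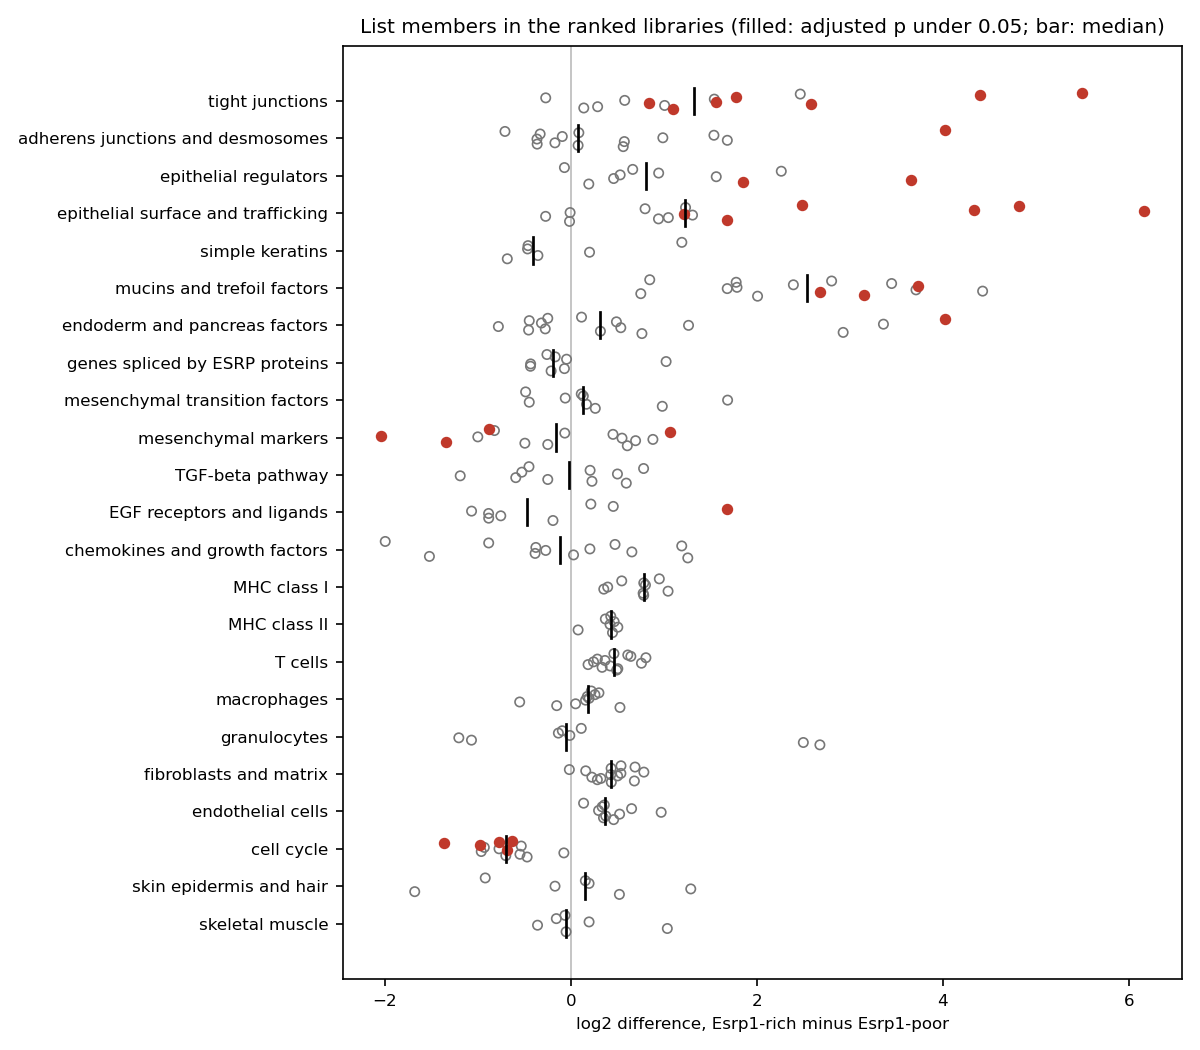
Log2 difference (rich minus poor) of each tested member of 23 gene lists, with 1 point per gene, filled where the adjusted p was below 0.05, and a bar at each list's median. Filled points lie to the right for tight junctions, surface and trafficking genes and mucins, and to the left for the cell cycle, where all 13 genes lie below 0.

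Mucins, trefoil factors and other secretory genes had positive differences throughout, with a wide spread between libraries. All 14 genes tested lay above 0, with a median of 2.54, beside 0.001 for all genes. Of these 14, 3 were called higher, beside 2.4% of all genes. Lgals4, a galectin of the gut lining, had 417 to 958 CPM in the rich libraries and 49.0 to 255 in the poor ones (2.68 ± 0.38, adjusted p = 0.00405). Muc6, a gel-forming mucin of stomach and pancreatic ducts, had 1.52 to 47.9 against 0.566 to 1.47 CPM (3.73 ± 0.74, adjusted p = 0.0157). Cftr, the chloride channel of duct cells, had 170 to 789 CPM in 5 rich libraries but 5.67 in bulk_6421c2_no2, below every poor library, which ran from 8.30 to 66.3 (3.15 ± 0.79, adjusted p = 0.0407). Its call was lost when any of several single libraries was left out. Tff2, a trefoil factor, ranged from 6.98 to 899 CPM in the rich and from 7.17 to 307 in the poor libraries (1.68, adjusted p = 0.367).

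Of 15 endoderm and pancreas factors tested, 1 was called higher, beside 2.4% of all genes. Sox17, a factor of early endoderm, had 24.6 to 177 CPM in 4 rich libraries and 7.14 and 3.86 in bulk_7160c5_no2 and bulk_7160c2_no2, against 2.25 to 4.90 in the poor ones (4.03 ± 0.79, adjusted p = 0.0148). bulk_7160c2 and bulk_7160c5, which had the highest Esrp1 levels, were thus the lowest rich ones in Sox17. With the T cell label in the model the adjusted p was 0.369. In that fit bulk_7160c5 was the only rich clone not labelled high, so this value leans on that clone. Foxa2, a factor of gut endoderm, had 25.4 to 70.6 against 57.8 to 104 CPM (-0.78, adjusted p = 0.0636), and Pdx1, a factor of the pancreas, had 30.6 to 51.9 against 7.10 to 59.6 (0.12, adjusted p = 0.876). Acinar and islet genes were all below 1 CPM in all 12 libraries, and Cela2a and Ins2 were at 0 counts.

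Cell cycle genes were lower in the rich group. Of 13 tested, 5 were called lower, beside 2.49% of all genes, and none higher. All 13 had a difference below 0, with a median of -0.70 beside 0.001 for all genes. Ccnb1, the cyclin of mitotic entry, had 20.9 to 29.2 CPM with a median of 24.0 in the rich libraries. In the poor group it had 21.6 CPM in bulk_6419c1_no2 and 61.7 to 80.7 in the other 5 (-1.36 ± 0.25, adjusted p = 0.0109). Ccna2, the cyclin of S phase, had 36.5 to 74.9 against 54.1 to 140 CPM (-0.98 ± 0.23, adjusted p = 0.0323). Top2a, a topoisomerase of dividing cells, had 112 to 216 against 132 to 304 (-0.77 ± 0.20, adjusted p = 0.0481), and Mki67 and Aurkb, both genes of dividing cells, were called at -0.63 and -0.68. The poor library bulk_6419c1_no2 lay at the level of the rich group in these genes. Without that clone 12 of the 13 were called, beside 1667 of 16197 genes. Without bulk_7160c2 and bulk_7160c5 none was, beside 275 of 16211. With the T cell label in the model 1 was, beside 164 of 15986.

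**Figure D3:**
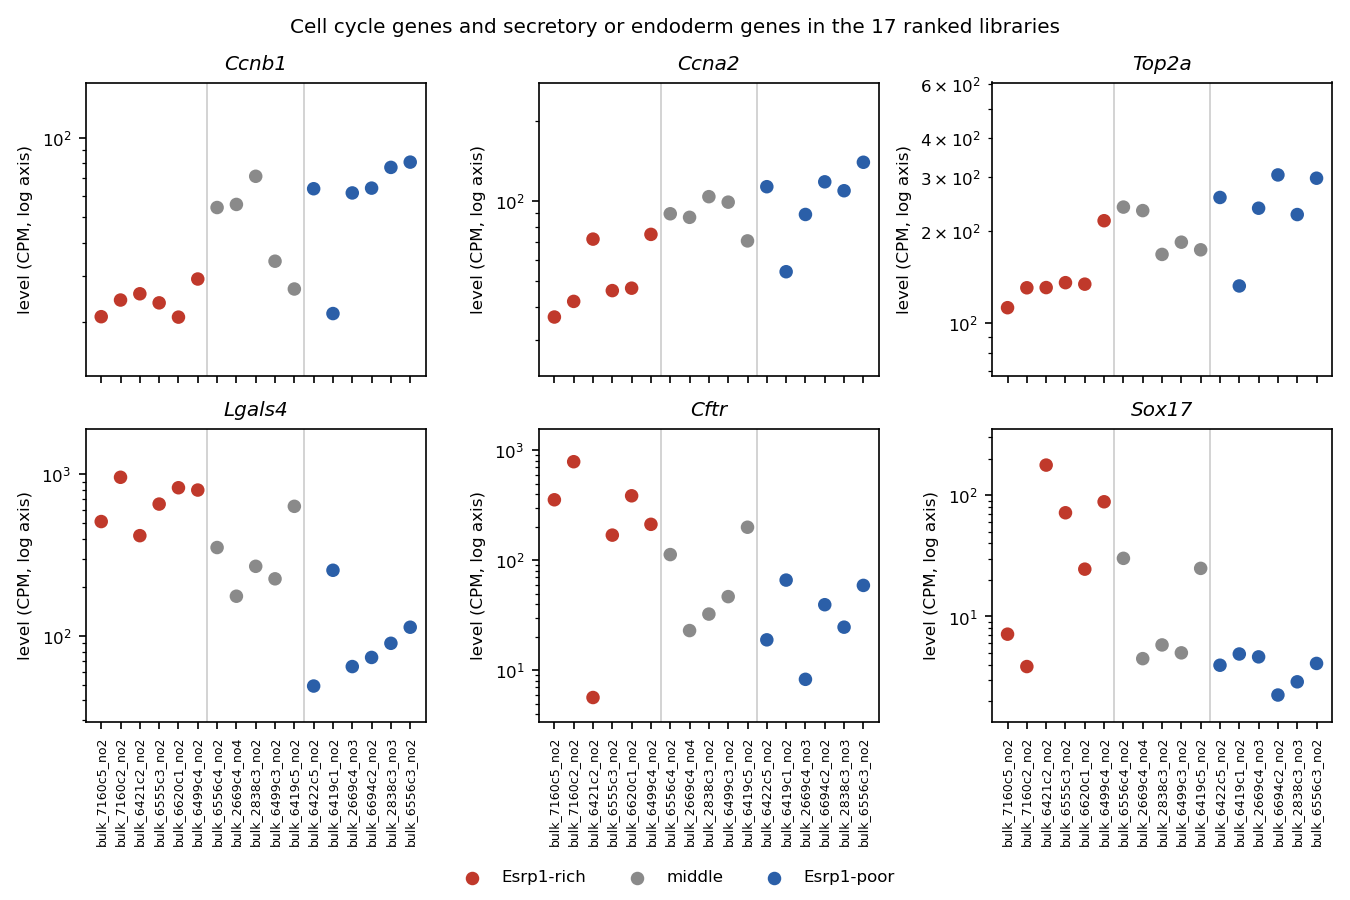
Level of 3 cell cycle genes and 3 secretory or endoderm genes in each of the 17 ranked libraries (CPM after TMM scaling, log axis), with 1 point per library. Ccnb1 lies between 20.9 and 29.2 CPM in the rich libraries and above 61 in 5 of the 6 poor ones, Cftr is low in the rich library bulk_6421c2_no2, and Sox17 is low in bulk_7160c2_no2 and bulk_7160c5_no2.

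Signalling lists gave few calls. With 4.89% of all genes called, Erbb3 was the only call among 8 receptors and ligands of the EGF family. Erbb2, its usual partner, had 92.3 to 160 CPM in the rich and 69.6 to 134 in the poor libraries (0.46, adjusted p = 0.128), Egfr had a difference of 0.22, and the ligand Areg -1.07 (adjusted p = 0.204). None of 10 TGF-beta pathway genes was called by edgeR in the 12 compared libraries, with a median of -0.02. Smad7, the inhibitory SMAD, had 65.4 to 105 against 77.8 to 154 CPM (-0.59 ± 0.16, adjusted p = 0.052). DESeq2 called Smad7 (adjusted p = 0.0228), and edgeR called it as a slope on the Esrp1 level (0.0384) and without bulk_2669c4 (0.0357), bulk_6419c1 (0.0357) or bulk_6620c1 (0.0318). Of 12 chemokines and growth factors none was called by edgeR in the 12 compared libraries. Cxcl1, a neutrophil chemokine, had 1.18 to 9.53 CPM in the rich libraries, 1.21 in the poor library bulk_6422c5_no2 and 10.8 to 36.0 in the other poor ones (-1.99 ± 0.67, adjusted p = 0.0975). Cxcl1 was called in 3 alternatives that compared 2 groups, among them the edgeR fit without bulk_6422c5 (adjusted p = 0.0396).

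The groups differ in the T cell label, and the immune lists gave 1 call by edgeR, in the dendritic cell list. All 13 T cell genes tested had a small difference above 0, with a median of 0.46 and no call. The summed level of the list was 11.9 to 77.1 CPM in the rich and 5.24 to 57.2 in the poor libraries. The highest poor value was in bulk_2838c3_no3, the 1 poor tumour labelled T cell high. Cd8a, a marker of cytotoxic T cells, had 0.117 to 4.19 against 0.0357 to 6.08 CPM (0.29 ± 1.01, adjusted p = 0.894), and its sign turned under several alternatives. The 9 MHC class I genes had a median of 0.78 with none called, H2-K1 among them with 342 to 2324 against 290 to 703 CPM (0.95, adjusted p = 0.202). The 7 class II genes had a median of 0.43, and Ciita, their master activator, a difference of 0.51 that turned to -0.30 without bulk_7160c2 and bulk_7160c5. In the dendritic cell list 1 of 6 was called, beside 4.89% of all genes. It was Tlr3, a receptor for double-stranded RNA, at 0.86 (adjusted p = 0.0475, edgeR). Leaving out any of several single libraries ended that call. Macrophage, granulocyte and B cell lists had no call, with medians of 0.19, -0.05 and 0.42.

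Stromal and other tissue markers are given because they can move with an epithelial difference. The summed fibroblast and matrix list had 7304 to 33014 CPM in the rich and 9774 to 16139 in the poor libraries, with its highest value in bulk_7160c5_no2. None of its 14 genes was called, with a median of 0.44 and 13 above 0. Endothelial genes had a median of 0.37 and no call. Skin and hair genes, a source of epithelial transcripts under the skin, summed to 26.3 to 88.0 CPM in the rich and 31.0 to 124 in the poor libraries, and none of 7 was called (median 0.16). Skeletal muscle genes had a median of -0.06. Liver genes summed to 12.5 to 120 CPM in the rich and 61.6 to 1056 in the poor libraries, with the highest value in bulk_6419c1_no2. None of the 5 liver genes tested was called. Apob, a lipoprotein of liver and gut, had 9.58 to 115 against 44.3 to 677 CPM (-2.55 ± 0.74, adjusted p = 0.0638). Their part in the other differences was tested only by leaving libraries out. Without those above 10 CPM of Alb, the albumin gene, 1271 genes were called.

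The genes with the largest positive differences were a mixed group. Nepn, a secreted leucine-rich protein found in embryonic gut endoderm, had 4.06 to 38.8 CPM in the rich libraries and at most 0.109 in the poor ones, where all 6 libraries together held 7 counts (8.58 ± 0.92, adjusted p = 5.97e-04). Rimkla, a peptide synthetase, had 499 counts in the rich group and 3 in the poor one (adjusted p = 0.00463), too few for a useful ratio. Reg1, a secreted protein of acinar and injured pancreas, had 25.0 to 989 against 0.0755 to 10.6 CPM (6.23 ± 1.16, adjusted p = 0.0124). Atp10b, a lipid flippase, had 2.23 to 35.4 against 0.0755 to 0.762 CPM (5.42 ± 0.84, adjusted p = 0.0057). In these 4 genes the groups did not overlap. Pigr, the receptor that carries antibodies across epithelia, had 29.8 to 363 against 0.0377 to 15.8 CPM (5.39 ± 1.27, adjusted p = 0.0314). Stmn2, a microtubule regulator of neurons, was higher in 5 of 6 rich libraries than in any poor one (6.00 ± 0.98, adjusted p = 0.0065).

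Nkx6-3, a homeobox gene of the stomach, was high in a pair of clones. It had 181 CPM in bulk_7160c2_no2 and 114 in bulk_7160c5_no2. The other rich libraries had 0.305 to 1.77 CPM and the poor ones 0.264 to 0.607. Its difference of 6.81 ± 1.58 (adjusted p = 0.0293) was 1.40 without those clones, with an adjusted p of 0.132. Lemd1, a gene mostly of testis, had 0 to 15.3 CPM in the rich libraries and 0 to 0.415 in the poor ones, with 5 of the 6 rich libraries above every poor one (5.30, adjusted p = 0.0243). Leaving out any of several single libraries ended the calls of Lemd1 and Pigr. Their log2 differences in the alternatives that compared 2 groups were 4.42 to 6.78 for Lemd1, with adjusted p-values of 6.07e-04 to 0.159, and 3.48 to 7.21 for Pigr, with 4.27e-04 to 0.206.

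On the poor side, Sall1, a zinc finger factor of kidney and limb development (chr8:89027235-89044162, - strand), had 1.32 to 37.0 CPM with a median of 15.3. The rich libraries had at most 0.107 CPM and together held 13 counts. The groups did not overlap, with a log2 difference of -8.03 ± 0.80 (SE, adjusted p = 4.2e-04). Nqo1, a quinone reductase of the oxidative stress response (chr8:107388225-107403206, - strand), had 0.396 to 0.820 CPM in the rich libraries and 1.32 to 19.5 in the poor ones (-4.04 ± 0.55, adjusted p = 0.00335). Insm1, a factor of neuroendocrine cells, had 0.0536 to 0.519 against 1.38 to 20.2 CPM (-4.23 ± 0.73, adjusted p = 0.00899). Disp2, a membrane protein of the dispatched family, had 1.5 to 6.36 against 9.58 to 108 CPM (-3.86 ± 0.64, adjusted p = 0.00677). These 4 genes separated the groups without overlap.

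In other poor-side genes 1 or more poor libraries lay at the level of the rich ones. Siglec15, a sialic acid-binding lectin, had 18.2 to 26.6 CPM in 5 poor libraries and 0.363 in bulk_6419c1_no2, against 0.0613 to 1.04 in the rich group (-5.22 ± 0.84, adjusted p = 0.00634). Cdh16, a cadherin of kidney tubules, had 93.7 CPM in bulk_6419c1_no2 and 0.0616 in bulk_6556c3_no2, against at most 0.386 in the rich libraries (-7.94 ± 1.34, adjusted p = 0.00752). Wt1, a zinc finger factor of kidney and mesothelium, had 120 CPM in bulk_6422c5_no2 and 53.4 in bulk_6419c1_no2 but 0.370 to 1.28 in the other poor libraries, against 0.231 to 0.552 in the rich ones (-6.31 ± 1.53, adjusted p = 0.0353). Those are the libraries above 10 CPM of Alb, and without both the difference was -0.83 with an adjusted p of 0.252. Qrfp, a neuropeptide gene, Slc14a1, a urea transporter, and Fat2, an atypical cadherin, were called at -4.39, -4.27 and -4.11. Without bulk_7160c2 and bulk_7160c5 their adjusted p-values were 0.0693, 0.0618 and 0.11.

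**Figure D4:**
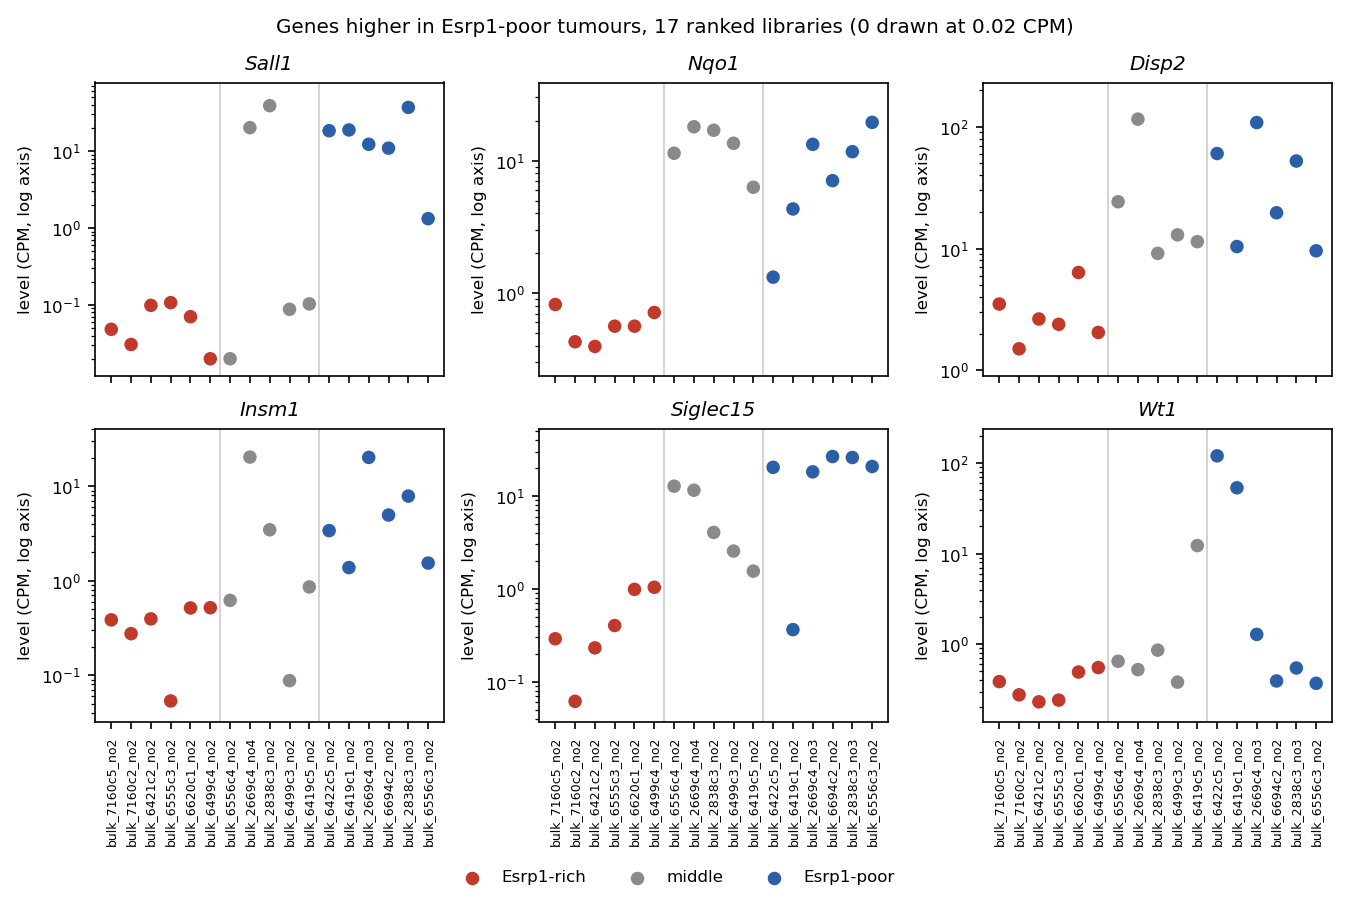
Level of 6 genes that were lower in Esrp1-rich tumours, in each of the 17 ranked libraries (CPM after TMM scaling, log axis, values of 0 drawn at 0.02), with 1 point per library. Sall1, Nqo1, Disp2 and Insm1 do not overlap between the rich and the poor libraries, Siglec15 is low in the poor library bulk_6419c1_no2, and Wt1 is high in bulk_6422c5_no2 and bulk_6419c1_no2.

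The 5 libraries between the groups did not lie midway in every gene. Epcam had 43.7 to 323 CPM there and Cldn7 21.5 to 62.6, which overlapped the poor range in Epcam and the rich range in Cldn7. St14 had 2.05 to 21.7 CPM and Cldn3 0.638 to 8.85. Vim, at 2873 to 3473 CPM, and Nqo1, at 6.30 to 18.0, were at the level of the poor libraries. Sall1 was split, with 20.2 and 39.0 CPM in bulk_2669c4_no4 and bulk_2838c3_no2 and at most 0.103 in the other 3. Both of the former clones also gave a poor library, so the level within a clone could be compared. Epcam was at 66.2 CPM in bulk_2838c3_no2 and 11.3 in bulk_2838c3_no3, and at 59.4 in bulk_2669c4_no4 and 18.6 in bulk_2669c4_no3. Cldn7 was at 29.5 and 10.2 in the first pair and at 21.5 and 9.06 in the second. Cdh1 was at 1096 and 686, and at 941 and 503. St14 differed in the first pair, with 7.37 and 2.55 CPM, and not in the second, with 2.05 and 2.04. Sall1 was at 39.0 and 37.0 CPM in the pair of clone bulk_2838c3 and at 20.2 and 12.3 in that of bulk_2669c4. Vim was at 3473 and 3230, and at 3467 and 3402. With 1 tumour of each kind per clone these differences have no replicate check.

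The same clones had been sequenced from other tumours that the ranking did not use. These 13 libraries, with 18.2 to 102.3 M counts, had 258 to 5922 CPM summed over Myh6, Myh7, Cps1 and Serpina3k, so liver or heart transcripts were present in all of them. Summed by clone, 0 of 17110 genes tested (0%) were called by edgeR's quasi-likelihood test. The smallest adjusted p was 0.251, and 2700 genes had an unadjusted p below 0.05. That count fell to 1136 of 17088 without bulk_7160c2 and bulk_7160c5, a fit with fewer rich clones. Leaving out 1 clone gave 1656 of 17002 genes without bulk_7160c5, 1840 of 17033 without bulk_7160c2 and 1926 of 17026 without the poor clone bulk_2669c4. It gave up to 3461 of 17651 without bulk_6421c2. No other pair of clones was left out, so the share of the contrast in these clones was not tested. With all clones DESeq2 called 302. Of 773 genes that were called in the ranked tumours and tested in both sets, 717 (92.8%) had the same sign in the other tumours, beside 67.1% of all 15742 genes tested in both. For genes called higher the median log2 difference was 1.8 in the ranked and 0.84 in the other tumours, and for genes called lower -0.85 and -0.30. Genes picked by their calls in 1 set tend to be smaller in any second set, so these sizes do not compare the sets.

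St14, Cldn3 and Ap1m2 had the same sign in the other tumours, at smaller size. St14 had 14.1 to 170 CPM of the total counts in the other tumours of rich clones and 1.97 to 14.4 in those of poor clones, a slight overlap (3.29 ± 0.76, adjusted p = 0.251). Epcam had 86.6 to 853 CPM against 21.9 to 86.9, and Cldn7 16.0 to 198 against 3.43 to 33.6. In these libraries bulk_7160c2 and bulk_7160c5 stood highest, with Epcam at 853 and 721 CPM, and the other rich clones had 86.6 to 182. Cldn3 had a difference of 1.11, with overlap at 23.25 to 142 CPM against 4.33 to 94.5, and Ap1m2 had one of 3.41. The poor-clone libraries bulk_2838c3_no1 and bulk_6694c2_no1 had 94.5 and 61.6 CPM of Cldn3, with summed liver and heart genes at 5587 and 4164 CPM. The ranked tumours of those clones had 0.273 and 0.535 CPM after TMM scaling. In bulk_7160c2_no1 and bulk_7160c5_no1 Cldn3 was at 142 and 129 CPM with sums of only 283 and 258. The part of those transcripts in the Cldn3 levels was not tested. Tight junction genes had a median of 0.59 with 13 of 14 above 0, surface and trafficking genes 0.85 with 15 of 15 above 0, and mucins 1.92, beside 0.017 for all genes. Ccnb1 had 25.6 to 43.0 CPM in tumours of rich clones and 49.4 to 69.9 in those of poor clones, without overlap (-0.79 ± 0.16, adjusted p = 0.251). The cell cycle list had a median of -0.37. T cell genes had a median of 1.86 there, with 14 of 14 above 0, beside 0.46 in the ranked tumours, with no call in either set. The rich clones were uneven in Cd8a. It had 3.43 to 6.50 CPM in bulk_6421c2_no1, bulk_7160c2_no1 and bulk_7160c5_no1. In bulk_6499c4_no1, bulk_6555c3_no1 and bulk_6620c1_no1 it had 0.0495 to 0.143, below the 0.160 to 0.972 of the poor clones. The latter rich libraries had 4412 to 5922 CPM of the summed liver and heart genes, whose part was not tested.

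**Figure D5:**
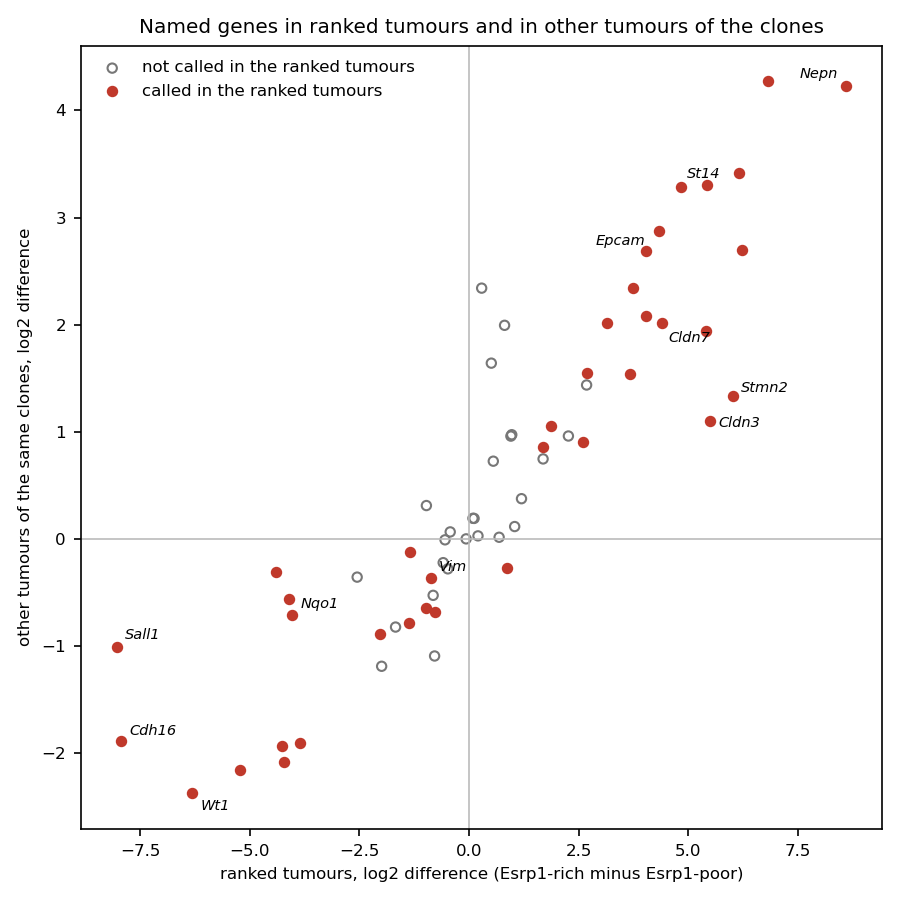
Log2 difference (rich minus poor) of 63 named genes in the ranked tumours (horizontal) and in the other tumours of the same clones (vertical), with 1 point per gene, filled where called in the ranked tumours. Of the 37 filled points, 36 have the same sign in both sets, and all 37 are smaller in size in the other tumours. Genes picked by their values in the ranked tumours tend to be smaller in any second set.

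Few genes were called when the change in the contrast between both sets of tumours was tested itself. An interaction term with the clone in the model called 3 of 17679 genes (0.017%). Before adjustment, 2603 had a p below 0.05 in this edgeR test, so the few calls do not show that few genes differed. Sall1 had an interaction of -6.29 ± 0.86 on the log2 scale (adjusted p = 0.0392). In the other tumours of rich clones Sall1 had 0.567 to 1.71 CPM in 3 libraries, with 258 to 714 CPM of the summed liver and heart genes. It had 9.80 to 16.0 CPM in the 3 libraries bulk_6620c1_no1, bulk_6499c4_no1 and bulk_6555c3_no1, whose summed liver and heart genes were at 4412 to 5922 CPM. The part of those transcripts in the Sall1 levels was not tested. H2afx, a histone variant gene, had -0.82 ± 0.12 and Olfml2b, an extracellular matrix gene, -0.99 ± 0.14 (adjusted p = 0.0392 each). These 3 calls rested on single clones, and 0 to 3 genes were called when 1 was left out.

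Promoter sequences are shown for the named junction and regulator genes with an entry in the RefSeq promoter table (GRCm38.p6), since all of them were higher in the rich tumours. Each line gives the 250 bases before a start site, 5′ to 3′ on the gene's strand, with each E-box in capitals. The E-box searched was CAGGTG on both strands, so that it also reads CACCTG, the sequence that ZEB and SNAI factors are known to bind. Epcam, at chr17:87635729-87635978 (+ strand), holds 2. The first start of Cldn7, at chr11:69964529-69964778 (+ strand), holds 0, as do Cldn3, at chr5:134985964-134986213 (+ strand), and Spdef, at chr17:27728952-27729201 (- strand). The window of the second Cldn7 start overlaps an untranslated region and is not shown, and it holds 2.
Epcam: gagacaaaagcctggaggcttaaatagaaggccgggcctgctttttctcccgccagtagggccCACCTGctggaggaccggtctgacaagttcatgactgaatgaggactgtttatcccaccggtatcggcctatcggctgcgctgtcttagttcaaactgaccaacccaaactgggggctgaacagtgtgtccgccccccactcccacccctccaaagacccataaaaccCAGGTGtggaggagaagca
Cldn7: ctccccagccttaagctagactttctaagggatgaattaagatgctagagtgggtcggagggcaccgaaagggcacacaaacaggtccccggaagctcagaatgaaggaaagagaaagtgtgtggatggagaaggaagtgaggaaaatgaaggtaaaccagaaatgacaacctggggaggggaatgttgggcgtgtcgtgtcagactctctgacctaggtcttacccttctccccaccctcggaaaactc
Cldn3: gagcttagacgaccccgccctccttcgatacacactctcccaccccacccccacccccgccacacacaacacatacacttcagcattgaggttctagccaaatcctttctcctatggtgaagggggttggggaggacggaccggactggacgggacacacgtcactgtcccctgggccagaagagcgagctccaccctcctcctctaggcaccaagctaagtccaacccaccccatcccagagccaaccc
Spdef: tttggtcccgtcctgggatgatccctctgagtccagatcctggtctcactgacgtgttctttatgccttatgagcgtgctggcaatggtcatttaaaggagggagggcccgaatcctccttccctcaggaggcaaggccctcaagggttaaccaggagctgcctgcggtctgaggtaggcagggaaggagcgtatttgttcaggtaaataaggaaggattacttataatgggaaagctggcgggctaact

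Of all 32851 promoter windows of this length, 17.22% hold the E-box. Counted by gene over all its starts, it is in 92 of 272 genes called higher with an entry (33.8%), in 44 of 270 called lower (16.3%) and in 2083 of 10966 tested genes (19.0%). Within the lists of tight junctions, adherens junctions and desmosomes, regulators and surface genes, 6 of 9 called genes with an entry hold it, and so do 8 of 18 that were tested and not called. A GRHL motif, AACCGGTT, is in 0.12% of all windows, in 1 of 272 genes called higher and in none of these 9. A match is a description of the letters, not a bound site, and no test was made.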

How the data were processed

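RNA was extracted with Qiagen columns and sequenced on an Illumina NextSeq instrument, per the labels' protocols. The authors deposited 1 table of read counts per gene, 39017 genes in 37 libraries, as whole numbers with no normalisation. The submitters' processing notes name STAR, featureCounts and mm10. Versions, annotation, strand and the handling of shared reads were not given in the sources used here, and near-identical, overlapping and antisense genes are therefore uncertain. Coordinates are from GENCODE M21, which held 37607 of the identifiers.

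Counts were tested in R 4.3.3 with edgeR 4.0.16, using TMM scaling, its default expression filter and the two-sided quasi-likelihood test, with Benjamini-Hochberg adjustment over all genes but Esrp1. Each clone gave 1 library per group. Standard errors are the absolute log2 difference over the square root of F and are approximate. The other 13 tumours were summed by clone. The difference between both sets was tested as an interaction with the clone as a term. Alternatives were scaling by relative log expression, DESeq2 1.42.0, other filters, other cuts of the ranking and a slope on the Esrp1 level. Further ones were the T cell label as a term, as high against low and intermediate together, and leaving out libraries. The gene-level test was checked on simulated data. Named genes are 12 preset ones, the 10 largest called in each direction with a mean of at least 1 CPM, and up to 3 called members of each of 29 lists, or failing that its member of smallest p; further list members are given by value. The members and lists were chosen with earlier results of these data known. The labels do not say whether tumours of a clone came from separate animals. Of the called list members, 2 are counted but their values are not reported here.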

Additional observations from a re-analysis of the deposited data

Results flagged for a closer look

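Single libraries stood apart from the other 5 of their group, by a gap past Dixon's limit for 6 values on a log2 scale, in 11 cases among 130 groups of 6 libraries checked. Chance alone flags about 1 in 20 such groups. In the rich group, bulk_6421c2_no2 was low in Cldn7 (34.2 CPM, the others 120 to 248.8) and in Cftr (5.67 CPM, the others 170 to 789). Esrp2 was high in bulk_6620c1_no2 (81.9 CPM, the others 37.1 to 46.3), Zeb2 in bulk_7160c5_no2 (111 CPM, the others 42.3 to 52.1) and Top2a in bulk_6499c4_no2 (216 CPM, the others 112 to 136). Insm1 was low in bulk_6555c3_no2 (0.0536 CPM, the others 0.276 to 0.519). In the poor group, bulk_6419c1_no2 was low in Siglec15 (0.363 CPM, the others 18.2 to 26.6), Ccnb1 (21.6 CPM, the others 61.7 to 80.7) and Top2a (132 CPM, the others 226 to 304). Sall1 was low in bulk_6556c3_no2 (1.32 CPM, the others 10.9 to 37.0) and Cxcl1 in bulk_6422c5_no2 (1.21 CPM, the others 10.8 to 36.0).

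The contrast between rich and poor clones differed between the ranked and the other tumours, by the edgeR interaction test, in Olfml2b (-0.989), Sall1 (-6.289) and H2afx (-0.815), as log2 values of the ranked minus the other tumours. Olfml2b had a contrast of -0.60 in the ranked and 0.34 in the other tumours, and H2afx -0.92 and -0.16.

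The 3 libraries without a phenotype label enter no comparison. Epcam was at 7.1 CPM of the total counts in bulk_6883c1_no1, 172 in bulk_6883c4_no1 and 56.1 in bulk_7062c3_no2, and Cldn7 was at 2.32, 68.7 and 47.1 in the same libraries.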

How the results depend on the processing

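The count of 782 genes called between the groups was 2016 with DESeq2, 268 with the top 5 against the bottom 5 libraries, 35 with the top 8 against the bottom 8, 164 with the T cell label as a term, 1271 without the libraries above 10 CPM of Alb and 275 without bulk_7160c2 and bulk_7160c5. Leaving out 1 clone gave 366 to 1667. It was 366 without bulk_6555c3, 384 without bulk_6694c2, 397 without bulk_7160c2, 406 without bulk_2838c3, 455 without bulk_6422c5, 485 without bulk_6556c3, 489 without bulk_7160c5 and 1667 without bulk_6419c1. Summing by clone and ranking by scaled levels changed nothing, since the same 12 libraries stood on the same sides. Of the 3 interaction calls, 1 was left without an expression filter, and leaving out 1 clone gave 0 to 3. For the other tumours 0 genes were called by edgeR under each alternative, and DESeq2 called 302.

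Direction turned only in genes that were not called, and the cause was not tested. Leaving out 1 clone gave -0.035 to 0.278 for Cdh1, -0.272 to 0.159 for Esrp2, -0.159 to 0.189 for Zeb2, -0.182 to 1.917 for Cd8a and -0.011 to 0.793 for Ciita. Cdh1 was also at -0.14 for the top 8 against the bottom 8 libraries and -0.01 as a slope, and Krt19 at -0.045 as a slope. Esrp2 was at 0.13 for the top 5, 0.054 with the T cell label, 0.54 without the libraries above 10 CPM of Alb and 0.061 without bulk_7160c2 and bulk_7160c5. In that last setting Zeb2 was at -0.18, Cd8a at -0.11, Ciita at -0.30 and Cd247 at -0.005. Cd8a was at -0.19 without the libraries above 10 CPM of Alb. No paired analysis was possible because the tumour numbers count tumours within a clone and pair nothing across clones. A block for the clone number was not run, since no number has clones in both groups. Genes at 0 to 13 counts in 1 group, such as Rimkla and Sall1, have fold sizes that depth limits.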

Other observations

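Genes of the stomach lining and of the Reg family, chosen after their values were seen, were high in several Esrp1-rich tumours. Reg3b and Reg3g, antimicrobial lectins of gut and injured pancreas, had 5.81 to 188 CPM and 1.82 to 133 CPM in the rich libraries, against 0 to 8.53 and 0.189 to 4.79 in the poor ones (log2 differences of 4.87 ± 1.11 and 4.60 ± 0.97, SE, n = 6 clones a group, adjusted p = 0.0273 and 0.0191, edgeR). Gkn3, a gastrokine, was called at 4.97 (adjusted p = 0.0384). Its relatives Gkn1 and Gkn2, with 5.0 and 4.27, were not, with adjusted p-values of 0.0654 and 0.142. In Gkn1, 4 of 6 rich libraries stood above every poor one, and in Gkn2 2 of 6. Some of the 5 libraries between the groups were as high. Gkn1 had 84.8, 107.2 and 139.7 CPM and Gkn2 126.4, 93.2 and 47.2 CPM in bulk_2838c3_no2, bulk_6499c3_no2 and bulk_6419c5_no2, and the last of these had 90.2 CPM of Reg3b and 63.0 of Gkn3.

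Some neuroendocrine genes, also chosen after their values were seen, were higher in Esrp1-poor tumours. Npy, which encodes a neuropeptide, had 0.264 to 2.94 CPM in the rich and 6.84 to 57.3 in the poor libraries (-3.57 ± 0.60, adjusted p = 0.0074). Ptprn, a protein of secretory granules, had 36.8 to 102 against 144 to 650 CPM (-2.48 ± 0.40, adjusted p = 0.00634), and neither gene overlapped between the groups. Snap25, a vesicle fusion protein, was called at -3.63 (adjusted p = 0.0175). Chga and Syp, the usual markers of neuroendocrine cells, were not called, with 0.80 and -0.15.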
